A study of Mus musculus with 20 samples.

Results

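Cell division genes were followed in obstructed and sham-operated mouse kidneys. The set holds 56 genes out of the 13827 gene symbols of the expression table, chosen with earlier results of these data known. The choice was by place in the cell cycle and not by a cutoff on the values, and all 56 genes were measured. Of these, 23 act mainly in G1 and S phase, when a cell commits to division and copies its DNA, and are called G1/S genes here. The other 33 act mainly in G2 and mitosis, when the copied chromosomes are condensed, lined up and pulled apart, and are called G2/M genes. Unilateral ureteral obstruction (UUO) blocks the outflow of a kidney, which then dilates, loses tubule function, and accumulates immune cells and scar tissue within days.

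A cell enters the cycle when D-type and E-type cyclins activate their kinases, which release the E2F transcription factors that switch on the genes of DNA replication. The MCM helicase is loaded onto replication origins with CDC6 and CDT1, and DNA is then copied with the PCNA clamp from nucleotides made by ribonucleotide reductase and thymidylate synthase. Later, another wave of genes is switched on, among them the mitotic cyclins, CDK1, the Aurora and Polo-like kinases, the spindle motors, and the ubiquitin ligase APC/C with its partners, which ends mitosis. In the healthy adult kidney few tubule cells divide, while after injury surviving tubule cells re-enter the cycle, and fibroblasts and immune cells of the kidney divide as well.

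The left kidney was taken from 20 male mice at day 7 after the operation (5 mice in each of 4 groups), and 1 RNA library was made per kidney. KDM6ACtrl mice had the genotype Pax8Cre+ and KDM6ATubKO mice the genotype Kdm6a fl/Y Pax8Cre+, and each genotype was given either sham surgery or UUO. All 4 groups therefore carried the Pax8-Cre transgene, and the control mice were age-matched. The methods give an age at the head of the section on the C57BL/6N mice and none separately for these genotypes. Kdm6a is an X-linked gene for a demethylase of H3K27me3, a histone mark of silenced genes. Pax8-Cre is active in epithelium along the kidney tubule, so fibroblasts, endothelium and immune cells keep Kdm6a, and the RNA was of the whole kidney. In such RNA, fewer cells of a type and less RNA per cell cannot be told apart. Values are FPKM, fragment numbers normalised for transcript length and for the size of the library, and their sum over all genes ranged from 298433 to 387352 per kidney. FPKM hold no fragment counts, so the depth reached in each library, and with it the counting error, is unknown. Mice are numbered 1 to 5 within a group in the order of the records, and values below are given in that order. Kdm6a itself (X:18162575-18279936, plus strand) measured 1.76 to 2.33 FPKM in KDM6ACtrl sham kidneys and 0.862 to 1.61 FPKM in KDM6ATubKO sham kidneys, without overlap (log2 fold change -0.48, adjusted p = 0.0501, limma). After UUO the genotypes overlapped, at 2.28 to 3.67 and 2.03 to 4.21 FPKM (log2 fold change 0.02, adjusted p = 0.957, limma). A value over the whole gene includes the exons that Cre leaves in place and cells without Cre, so it does not check the deletion. By immunoblotting, the paper reports less KDM6A protein in KDM6ATubKO kidneys and none in their primary tubule epithelial cells. Kidney identity was checked with 8 proximal tubule markers, all of them measured, whose FPKM summed to between 1354 and 2518 in sham kidneys and to between 298 and 911 after UUO.

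The G1/S and G2/M genes are often told apart by short DNA motifs near their start sites. E2F sites are typical of replication genes, CCAAT boxes bind the NF-Y factor, and CHR elements, bound by the DREAM and MuvB complexes, are typical of mitotic genes. RefSeq promoters (GRCm38.p6) were found for 46 of the 56 genes, as 50 promoters since some genes have several. The others were Gins1, Tpx2, Mcm4, Ccne2, Aurkb, Ccna2, Gins2, Smc4, Ccnd1 and Kif20a. The 200 bases that end just before the RefSeq start are shown for 3 replication genes and 6 mitotic genes whose values are described below, because they show the motifs side by side. They are written 5′ to 3′ on the strand of the gene, and capitals mark CCAAT or its reverse ATTGG, the CHR letters TTTGAA or TTCGAA or their reverse, and the E2F letters TTTCCCGC, TTTGGCGC, TTTCGCGC or TTTGCCGC or their reverse. The Uhrf1 promoter is that of a start 992 bases inside the gene as listed in the expression table. It was shown instead of the other RefSeq promoter of Uhrf1 (window chr17:56303087-56303386) because it holds the E2F letters. The other holds 1 CCAAT box and neither E2F nor CHR letters.
Mcm3 (chr1:20820313-20820512, minus strand): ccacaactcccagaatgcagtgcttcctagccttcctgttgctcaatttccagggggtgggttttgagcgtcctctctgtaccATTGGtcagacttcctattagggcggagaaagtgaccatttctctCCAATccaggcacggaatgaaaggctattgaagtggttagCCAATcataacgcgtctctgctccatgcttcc
Mcm6 (chr1:128359706-128359905, minus strand): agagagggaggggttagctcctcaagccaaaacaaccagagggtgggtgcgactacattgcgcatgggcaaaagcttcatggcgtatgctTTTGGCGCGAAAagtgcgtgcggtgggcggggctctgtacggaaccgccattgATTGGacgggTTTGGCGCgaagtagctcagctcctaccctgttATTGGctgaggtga
Uhrf1 (chr17:56304113-56304312, plus strand): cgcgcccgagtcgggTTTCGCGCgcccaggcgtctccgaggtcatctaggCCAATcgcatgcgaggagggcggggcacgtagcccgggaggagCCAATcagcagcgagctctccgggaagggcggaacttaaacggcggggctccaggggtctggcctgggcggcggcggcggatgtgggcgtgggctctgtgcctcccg
Ccnb2 (chr9:70421555-70421754, minus strand): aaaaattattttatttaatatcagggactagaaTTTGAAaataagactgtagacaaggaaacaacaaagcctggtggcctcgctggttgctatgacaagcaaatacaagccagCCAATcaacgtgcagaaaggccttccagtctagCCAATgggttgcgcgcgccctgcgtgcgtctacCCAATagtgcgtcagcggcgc
Cks2 (chr13:51645032-51645231, plus strand): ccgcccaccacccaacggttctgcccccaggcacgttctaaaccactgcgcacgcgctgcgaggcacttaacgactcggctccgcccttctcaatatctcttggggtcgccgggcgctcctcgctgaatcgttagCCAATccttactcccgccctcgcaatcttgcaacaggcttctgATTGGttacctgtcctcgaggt
Ube2c (chr2:164769729-164769928, plus strand): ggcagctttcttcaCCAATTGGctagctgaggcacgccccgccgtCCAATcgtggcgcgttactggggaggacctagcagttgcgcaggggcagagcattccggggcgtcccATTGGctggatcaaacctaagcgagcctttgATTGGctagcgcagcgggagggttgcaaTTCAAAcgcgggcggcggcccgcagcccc
Cdk1 (chr10:69352913-69353112, minus strand): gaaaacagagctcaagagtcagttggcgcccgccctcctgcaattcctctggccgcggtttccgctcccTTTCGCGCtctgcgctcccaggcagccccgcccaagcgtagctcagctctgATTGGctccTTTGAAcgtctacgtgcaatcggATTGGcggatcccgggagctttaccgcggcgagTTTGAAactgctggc
Mki67 (chr7:135716380-135716579, minus strand): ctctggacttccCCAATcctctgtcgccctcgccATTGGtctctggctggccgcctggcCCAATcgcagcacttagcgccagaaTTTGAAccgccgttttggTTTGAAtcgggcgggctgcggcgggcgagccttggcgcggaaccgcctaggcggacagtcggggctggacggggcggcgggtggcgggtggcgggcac
Top2a (chr11:99024190-99024389, minus strand): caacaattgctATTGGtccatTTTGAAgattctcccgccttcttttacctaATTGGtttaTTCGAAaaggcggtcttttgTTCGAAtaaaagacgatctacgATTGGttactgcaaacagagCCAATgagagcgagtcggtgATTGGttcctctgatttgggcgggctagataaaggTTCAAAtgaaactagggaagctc

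Over the 250 bases before each start, on both strands and with overlapping matches counted, a CHR element was found in 14 of 30 promoters of G2/M genes (46.7%) and in 4 of 20 promoters of G1/S genes (20%), against 17.1% of all 32851 RefSeq promoters of that length. Cdk1 and Mki67 each held 2 in the bases shown, and Top2a held 4. The E2F letters went the other way, with 6 of 20 promoters of G1/S genes (30%), 2 of 30 of G2/M genes (6.67%), and 1.86% of all promoters. A CCAAT box was common to both, in 13 of 20 promoters of G1/S genes (65%) and 26 of 30 of G2/M genes (86.7%), against 33.8% of all promoters. In Ube2c the letters CCAATTGG hold a match on each strand, and in Mcm6 matches to the E2F letters on the opposite strands overlap. In the nearest 150 bases the CHR shares were 40%, 10% and 9.70%, in the same order of G2/M genes, G1/S genes and all promoters. These matches describe the letters only and are no evidence of binding, and a promoter without a match says only that these letters are not in its window.

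Cell cycle genes rose together after obstruction in both genotypes. In KDM6ACtrl mice, 52 of the 56 genes were higher in UUO than in sham kidneys and 0 were lower, at a Benjamini-Hochberg adjusted p under 0.05 from limma over all genes, where 56.7% of all genes were higher and 15.1% lower. In KDM6ATubKO mice, 53 were higher and 0 lower, where 57.9% of all genes were higher and 16.7% lower. No gene of the set was lower at an unadjusted p under 0.05 in either genotype. The median log2 fold change of the 56 genes was 1.14 in KDM6ACtrl mice and 1.16 in KDM6ATubKO mice, in comparison to 0.35 and 0.39 over all genes. For the 23 G1/S genes the medians were 1.02 and 1.03, and for the 33 G2/M genes 1.35 and 1.36. All log2 fold changes are differences of log2(FPKM + 1), which understate the change of low genes, and their standard errors over the 56 genes lay between 0.09 and 0.26.

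The expression table lists a gene only if its mean reached 0.5 FPKM in at least 1 group, and 29 of the 56 genes (6 G1/S and 23 G2/M) were below that in both sham groups. Those 29 were in the table through a UUO group, so that a higher UUO mean in at least 1 genotype follows from the listing. Their UUO means reached 0.5 FPKM in both genotypes, except for Cdc6 in KDM6ATubKO mice, whose UUO mean was 0.337 FPKM. By role they were 2 of 3 G1 cyclins, 1 of 2 E2F factors, 1 of 11 genes of origin licensing and the helicase, 0 of 5 of the clamp and nucleotide supply, both of chromatin inheritance (Uhrf1 and Hells), 3 of 5 of the mitotic cyclins and CDK1, 5 of 5 mitotic kinase and passenger genes, 4 of 5 of the checkpoint and the APC/C, 4 of 6 of the kinetochore and spindle, 4 of 6 of the central spindle and 3 of 6 of chromosome structure. The counts of genes that rose in those roles below are fixed in part by this. The 29 include Ccne1, Uhrf1, Birc5, Ube2c, Tpx2, Kif20a and Mki67. For all 29, the UUO effects and p-values below are descriptions and no independent evidence of a rise. Among the other 27, which reached 0.5 FPKM in a sham group, 23 rose in KDM6ACtrl mice, where 52.1% of all 12214 such genes rose, and 24 rose in KDM6ATubKO mice, where 53.8% rose. Their median log2 fold change was 1.08 in KDM6ACtrl mice and 1.11 in KDM6ATubKO mice, in comparison to 0.28 and 0.32 over all such genes. The cutoffs of the study (a change of 1.5-fold or more and an unadjusted p under 0.05) were applied here to limma on log2(FPKM + 1). They were not applied to the study's own fold changes and p-values. By them 50 of the 56 genes were higher in KDM6ACtrl mice (32.8% of all genes) and 48 in KDM6ATubKO mice (36.1%). The 1 added to FPKM keeps some low genes under the cutoff, such as Cdc6, whose mean rose 11.3 times in KDM6ACtrl mice. The UUO kidneys of a genotype were all higher than its sham kidneys for 52 genes in KDM6ACtrl mice (45.8% of all genes) and for 51 genes in KDM6ATubKO mice (50.1%).

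The mean level passed 1 FPKM for 17 of the 56 genes in KDM6ACtrl sham kidneys and for 15 in KDM6ATubKO sham kidneys. After UUO it did so for 52 genes in KDM6ACtrl and 49 in KDM6ATubKO kidneys. The summed FPKM of the set made up 0.0311% to 0.0435% of all FPKM in KDM6ACtrl sham kidneys and 0.0307% to 0.0359% in KDM6ATubKO sham kidneys. After UUO the share was 0.0946% to 0.114% in KDM6ACtrl and 0.0754% to 0.125% in KDM6ATubKO kidneys, without overlap between sham and UUO kidneys. The shift over all genes after UUO depends on how libraries are scaled. With upper quartile rescaling the median of all genes moved to 0.14 in KDM6ACtrl mice and 0.18 in KDM6ATubKO mice, and with quantile normalization to -0.05 and -0.04, where 28.8% of all genes were higher and 35.0% lower in KDM6ACtrl mice, and 31.7% higher and 35.0% lower in KDM6ATubKO mice. Among the genes that reached 0.5 FPKM in a sham group, the median of the 17 G1/S genes lay above the median of all such genes by 0.75 in KDM6ACtrl mice as deposited, 0.79 with upper quartile rescaling and 0.62 with quantile normalization, and by 0.79, 0.82 and 0.64 in KDM6ATubKO mice. For the 10 G2/M genes the same differences were 0.88, 0.92 and 0.73 in KDM6ACtrl mice and 1.17, 1.18 and 1.02 in KDM6ATubKO mice. With quantile normalization 49 genes of the set rose in KDM6ACtrl mice and 46 in KDM6ATubKO mice, and 2 fell in each (Tyms and Spag5). The rise was then lost for Cdc6, Cdt1 and Cdc45 in KDM6ACtrl mice, and for Ccne2, Cdc6, Cdt1, Cdc45, Tk1, Tyms and Ect2 in KDM6ATubKO mice. A per-gene F-test modelled on Ballgown, with a library-size covariate, called 0 genes of the set in either genotype. At an unadjusted p under 0.05 it had 20 in KDM6ACtrl and 2 in KDM6ATubKO mice. The covariate was the sum of log2(FPKM + 1) over the nonzero genes below the upper quartile of a kidney. It was taken from FPKM and does not measure sequencing depth. That covariate lay between 17729.6 and 18920 in sham kidneys and between 22415 and 23849 in UUO kidneys, without overlap, so that it and obstruction cannot be told apart in this test. The F-test without the covariate, chosen after the data were seen, called 52 genes in KDM6ACtrl and 51 in KDM6ATubKO mice.

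**Figure D1:**
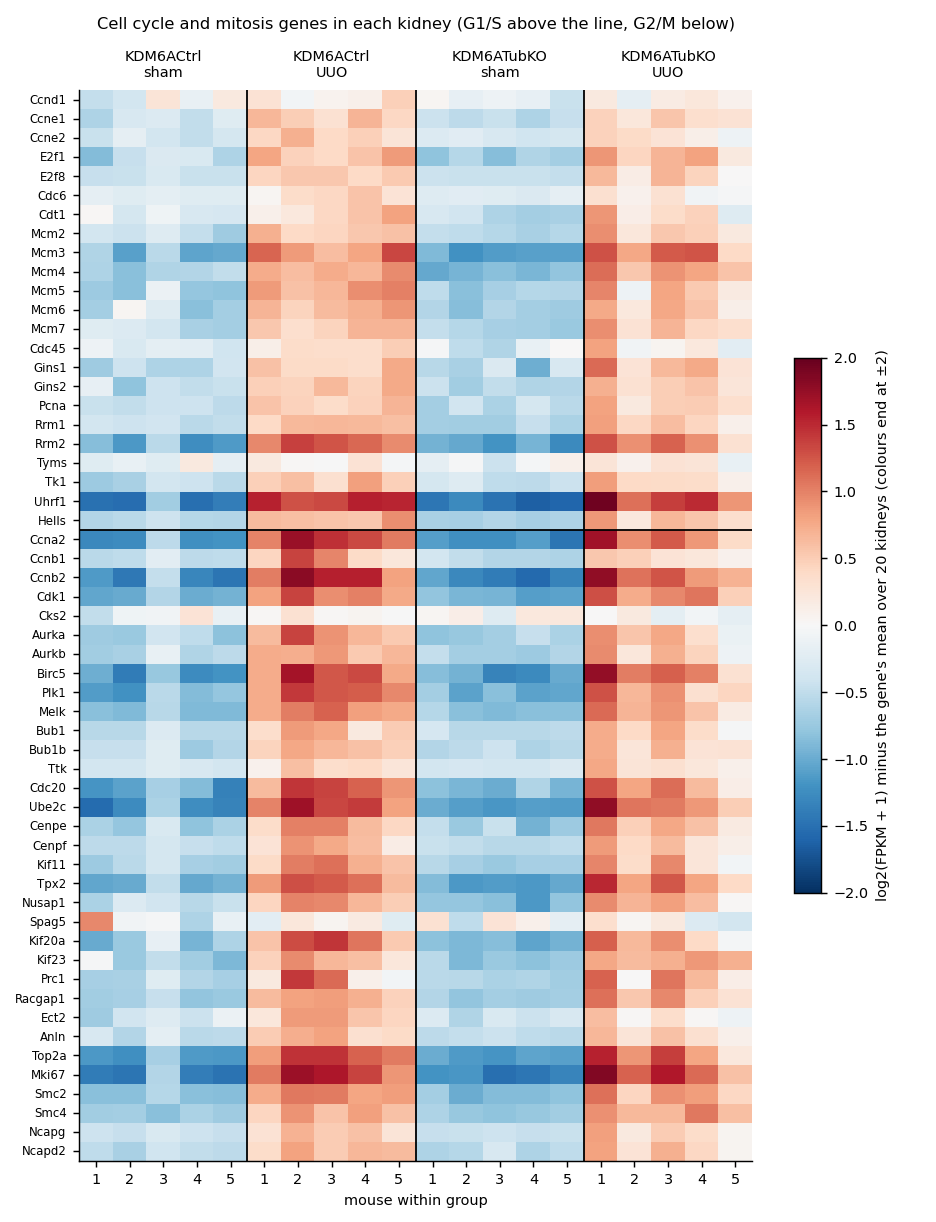
Levels of the 56 genes (rows, by role) in the 20 kidneys (columns, by group), as log2(FPKM + 1) minus the mean of the gene over the 20 kidneys, with colours ending at 2 in either direction. Nearly all rows are low in the sham groups and high in the UUO groups, except Ccnd1, Tyms, Cks2 and Spag5, and mouse 3 of the KDM6ACtrl sham group is raised for the mitotic genes.

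The genes that open the cycle divided into those that were already abundant and those that were nearly absent before obstruction. Ccnd1 encodes cyclin D1, which couples growth signals to the G1 kinases CDK4 and CDK6. In KDM6ACtrl mice Ccnd1 (7:144929931-144939925, minus strand) was at 23.2, 25.1, 39.2, 29.2 and 37.2 FPKM in the sham kidneys, and at 39.9, 31.5, 34.2, 35.2 and 45.7 FPKM in the UUO kidneys. Ccnd1 levels in KDM6ATubKO mice were 33.6, 29.1, 30.3, 28.8 and 23.5 FPKM in the sham kidneys, and 37.3, 28.5, 36.5, 38.0 and 34.6 FPKM in the UUO kidneys. Sham and UUO kidneys overlapped in both genotypes. The log2 fold change of 0.29 ± 0.14 in KDM6ACtrl mice and of 0.26 ± 0.14 in KDM6ATubKO mice did not pass the test (adjusted p = 0.07 and 0.0934, limma). It passed in KDM6ACtrl mice without sham mouse 3 (0.38), sham mouse 5 (0.36) or UUO mouse 2 (0.34), and in KDM6ATubKO mice without UUO mouse 2 (0.33). It also passed in both genotypes with a urothelium covariate, the mean log2(FPKM + 1) of the urothelium markers in each kidney (0.51 and 0.37, adjusted p = 0.0417 and 0.0383, limma). In KDM6ATubKO mice it passed with the compared groups alone as well (adjusted p = 0.0407, limma). The E-type cyclins, which drive the entry into S phase through CDK2, did rise. The Ccne1 values (7:38097984-38107534, minus strand) were 0, 0.220, 0.262, 0.0841 and 0.296 FPKM in KDM6ACtrl sham kidneys, and 1.43, 1.16, 0.894, 1.44 and 1.04 FPKM in KDM6ACtrl UUO kidneys. For KDM6ATubKO mice, Ccne1 gave 0.140, 0.0703, 0.123, 0 and 0.109 FPKM in sham kidneys, and 1.10, 0.794, 1.25, 0.927 and 0.874 FPKM in UUO kidneys. All UUO kidneys lay above all sham kidneys, and 1 sham kidney of each genotype was listed at 0. The UUO effect on Ccne1 was 0.90 ± 0.09 in KDM6ACtrl mice (adjusted p = 3.7e-08) and 0.87 ± 0.09 in KDM6ATubKO mice (adjusted p = 4.89e-08, limma). Ccne2, which encodes the other E-type cyclin, rose by 0.81 and 0.55 in the same order.

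The E2F factors in the set were E2f1, an activator of replication genes, and E2f8, a repressor that shuts them down later. E2f1 (2:154559407-154569892, minus strand) lay at 0.599, 1.13, 1.38, 1.37 and 0.910 FPKM in KDM6ACtrl sham kidneys, and at 4.03, 3.03, 2.86, 3.32 and 4.26 FPKM in KDM6ACtrl UUO kidneys. The KDM6ATubKO kidneys had E2f1 levels of 0.676, 0.965, 0.623, 0.928 and 0.820 FPKM after sham surgery, and of 4.37, 2.92, 3.70, 4.09 and 2.35 FPKM after UUO. The sham kidneys reached no higher than 1.38 FPKM, and the UUO kidneys no lower than 2.35 FPKM. On the log2 scale E2f1 changed by 1.12 ± 0.13 in KDM6ACtrl mice (adjusted p = 4.91e-07) and 1.30 ± 0.13 in KDM6ATubKO mice (adjusted p = 5.48e-08, limma). E2f8 rose by 0.90 and 0.84.

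All 11 genes of origin licensing and the replicative helicase rose in both genotypes, with a median log2 fold change of 1.02 in KDM6ACtrl mice and 1.11 in KDM6ATubKO mice. MCM2 to MCM7 form the ring that unwinds DNA, and all 6 of their genes were in the set. Mcm3 (1:20802968-20820312, minus strand) measured 1.27, 0.611, 1.34, 0.654 and 0.688 FPKM in the KDM6ACtrl sham kidneys, and 6.65, 5.15, 4.25, 4.90 and 7.62 FPKM in the KDM6ACtrl UUO kidneys. In KDM6ATubKO mice Mcm3 stood at 0.848, 0.480, 0.581, 0.609 and 0.615 FPKM after sham surgery, and at 7.28, 4.87, 6.99, 7.18 and 3.5 FPKM after UUO. The sham kidneys reached 1.34 FPKM at most, and the UUO kidneys were at 3.5 FPKM or more. Its mean rose from 0.912 ± 0.360 to 5.71 ± 1.38 FPKM in KDM6ACtrl mice (mean ± SD, n = 5), a log2 fold change of 1.81 ± 0.17 (adjusted p = 2.13e-08, limma), and the change in KDM6ATubKO mice was 2.06 ± 0.17 (adjusted p = 2.78e-09). In KDM6ACtrl mice Mcm6 (1:128331590-128359664, minus strand) was at 3.40, 6.26, 4.90, 2.95 and 3.40 FPKM in the sham kidneys, and at 10.3, 8.6, 9.94, 10.5 and 12 FPKM in the UUO kidneys. Mcm6 levels in KDM6ATubKO mice were 3.69, 2.9, 3.69, 3.37 and 3.32 FPKM in the sham kidneys, and 10.9, 7.12, 11, 9.48 and 6.66 FPKM in the UUO kidneys. Again no sham kidney reached a UUO kidney, although mouse 2 of the KDM6ACtrl sham group, at 6.26 FPKM, came near the lowest UUO value of 6.66 FPKM in mouse 5 of the KDM6ATubKO group. For Mcm6, whose promoter holds 3 matches to the E2F letters in the bases shown above, the log2 fold change was 1.15 ± 0.15 in KDM6ACtrl mice (adjusted p = 2.07e-06) and 1.17 ± 0.15 in KDM6ATubKO mice (adjusted p = 1.38e-06, limma).

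Mcm4 is described because it was the single gene of the set with an interaction of genotype and surgery at an unadjusted p under 0.05, which was seen after the fit. The Mcm4 values (16:15623897-15637400, minus strand) were 2.40, 1.95, 2.45, 2.50 and 2.72 FPKM in KDM6ACtrl sham kidneys, and 7.79, 7.05, 7.80, 7.28 and 9.12 FPKM in KDM6ACtrl UUO kidneys. For KDM6ATubKO mice, Mcm4 gave 1.57, 1.76, 1.92, 1.77 and 2.03 FPKM in sham kidneys, and 10.4, 6.64, 8.75, 8.01 and 6.82 FPKM in UUO kidneys. The UUO kidneys all lay above the sham kidneys, and the genotypes overlapped within each surgery. Mcm4 changed by 1.37 ± 0.10 in KDM6ACtrl mice (adjusted p = 6.92e-10) and 1.68 ± 0.10 in KDM6ATubKO mice (adjusted p = 3.84e-11, limma). Mcm2, Mcm5 and Mcm7 rose by 0.98, 1.46 and 0.98 in KDM6ACtrl mice, and by 1.03, 1.11 and 1.16 in KDM6ATubKO mice. Gins1 and Gins2 encode subunits of the GINS complex, which joins the MCM ring in the active helicase, and rose by 1.04 and 1.02 in KDM6ACtrl mice and by 1.17 and 1.03 in KDM6ATubKO mice. The licensing factors Cdc6 and Cdt1 rose by 0.55 and 0.63 in KDM6ACtrl mice and by 0.36 and 0.84 in KDM6ATubKO mice. Cdc45, whose protein completes the active helicase, was among the weakest of the 11. It was at 0.770 to 1.18 FPKM in KDM6ACtrl sham and 1.54 to 2.27 FPKM in KDM6ACtrl UUO kidneys. In KDM6ATubKO kidneys it was at 0.545 to 1.34 FPKM after sham surgery and 1.02 to 3.07 FPKM after UUO, with overlap. For Cdc45, UUO changed the level by 0.58 ± 0.15 in KDM6ACtrl mice (adjusted p = 0.00255) and 0.41 ± 0.15 in KDM6ATubKO mice (adjusted p = 0.0213, limma), and the call in KDM6ATubKO mice was lost without mouse 2 or mouse 3 of the sham group or mouse 1 of the UUO group (0.35, 0.33 and 0.25). It was lost as well with the compared groups alone (adjusted p = 0.0708), with upper quartile rescaling (0.25, adjusted p = 0.158, limma) and in the F-test without the library-size covariate (adjusted p = 0.114).

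Genes of the sliding clamp and of nucleotide supply rose to unlike extents. Pcna, whose protein holds DNA polymerases on the template, was among the most abundant genes of the set in sham kidneys. Pcna (2:132249162-132253314, minus strand) lay at 13.7, 13.3, 14.1, 14 and 13.0 FPKM in KDM6ACtrl sham kidneys, and at 28.7, 26.8, 24.9, 26.5 and 31.0 FPKM in KDM6ACtrl UUO kidneys. The KDM6ATubKO kidneys had Pcna levels of 11.5, 14.4, 12, 14.8 and 12.8 FPKM after sham surgery, and of 34.1, 22, 27.4, 27.6 and 24.2 FPKM after UUO. Sham kidneys spanned only 11.5 to 14.8 FPKM, and UUO kidneys lay between 22 and 34.1 FPKM. The UUO effect on Pcna was 0.97 ± 0.09 in KDM6ACtrl mice (adjusted p = 3.81e-08) and 0.98 ± 0.09 in KDM6ATubKO mice (adjusted p = 2.26e-08, limma). Rrm2 (12:24708241-24714146, plus strand) measured 1.56, 1.09, 2.17, 0.958 and 1.10 FPKM in the KDM6ACtrl sham kidneys, and 7.96, 10.8, 10.1, 9.24 and 7.87 FPKM in the KDM6ACtrl UUO kidneys. In KDM6ATubKO mice Rrm2 stood at 1.40, 1.26, 1.02, 1.41 and 0.912 FPKM after sham surgery, and at 10.2, 7.66, 9.44, 7.69 and 4.67 FPKM after UUO. Rrm2 encodes the subunit of ribonucleotide reductase that is made in S phase, and its sham values reached 2.17 FPKM at most, while its UUO values were 4.67 FPKM or more. On the log2 scale Rrm2 changed by 2.12 ± 0.16 in KDM6ACtrl mice (adjusted p = 1.3e-09) and 1.99 ± 0.16 in KDM6ATubKO mice (adjusted p = 2.14e-09, limma). Rrm1, the partner subunit, rose by 1.03 and 1.11, and Tk1, the thymidine kinase, by 1.08 and 0.83.

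Tyms, which encodes thymidylate synthase, moved least among these 5 genes. In KDM6ACtrl mice Tyms (5:30058202-30073617, minus strand) was at 1.71, 1.90, 1.71, 2.69 and 1.82 FPKM in the sham kidneys, and at 2.68, 2.27, 2.19, 2.91 and 2.10 FPKM in the UUO kidneys. Tyms levels in KDM6ATubKO mice were 1.82, 2.15, 1.39, 2.12 and 2.44 FPKM in the sham kidneys, and 2.83, 2.40, 2.91, 2.81 and 1.88 FPKM in the UUO kidneys. Sham and UUO kidneys overlapped in both genotypes. The log2 fold change of 0.21 ± 0.11 in KDM6ACtrl mice did not pass the test (adjusted p = 0.0977, limma), and that of 0.26 ± 0.11 in KDM6ATubKO mice passed it narrowly (adjusted p = 0.045). In KDM6ACtrl mice it passed without sham mouse 4 (0.29). The call in KDM6ATubKO mice was lost without mouse 1 or 3 of its sham group (0.24 and 0.18), any 1 of mice 1 to 4 of its UUO group (0.22 to 0.27), or mouse 2 or 5 of the KDM6ACtrl sham group, which changed the shared spread and not the value. It was lost as well with upper quartile rescaling (0.06, adjusted p = 0.682), array weights (adjusted p = 0.0605), the compared groups alone (adjusted p = 0.0654, limma) and the F-test without the library-size covariate (adjusted p = 0.0858). With quantile normalization Tyms was lower after UUO, by -0.33 and -0.31. Tyms has a named pseudogene in the annotation, as do Pcna, Ccnb1 and Ccnb2, so reads of these genes could have been split and their values are less certain.

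On the log2(FPKM + 1) scale the gene of the set with the largest UUO effect was Uhrf1, whose protein reads newly copied DNA behind the replication fork and brings in the maintenance methyltransferase. Uhrf1 is among the genes listed only through UUO kidneys, so this rank is a description. The Uhrf1 values (17:56303321-56323486, plus strand) were 0.253, 0.217, 1.17, 0.234 and 0.344 FPKM in KDM6ACtrl sham kidneys, and 9.19, 7.52, 7.77, 9.37 and 9.12 FPKM in KDM6ACtrl UUO kidneys. For KDM6ATubKO mice, Uhrf1 gave 0.298, 0.458, 0.269, 0.138 and 0.169 FPKM in sham kidneys, and 12.5, 6.51, 8.18, 8.88 and 5.48 FPKM in UUO kidneys. A single sham kidney, mouse 3 of the KDM6ACtrl group, passed 1 FPKM, and no UUO kidney was under 5 FPKM. The mean rose from 0.444 ± 0.411 to 8.6 ± 0.873 FPKM in KDM6ACtrl mice, 19.3 times the sham mean, and from 0.266 ± 0.126 to 8.31 ± 2.69 FPKM in KDM6ATubKO mice, 31.2 times. Without sham mouse 3 the KDM6ACtrl sham mean was 0.262 FPKM and the UUO mean 32.8 times as high. As ratios of means some genes with sham values nearer 0 stood higher, but such ratios turn on single sham kidneys. Melk, listed at 0 in 3 of 5 KDM6ACtrl sham kidneys, had a ratio of 44.0 in KDM6ACtrl mice with sham mouse 3 and of 369.5 without it. On the log2(FPKM + 1) scale the change was 2.77 ± 0.17 in KDM6ACtrl mice (adjusted p = 1.14e-10) and 2.84 ± 0.17 in KDM6ATubKO mice (adjusted p = 5.42e-11, limma). Hells, a chromatin remodeler needed for DNA methylation, rose by 1.20 and 1.17.

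**Figure D2:**
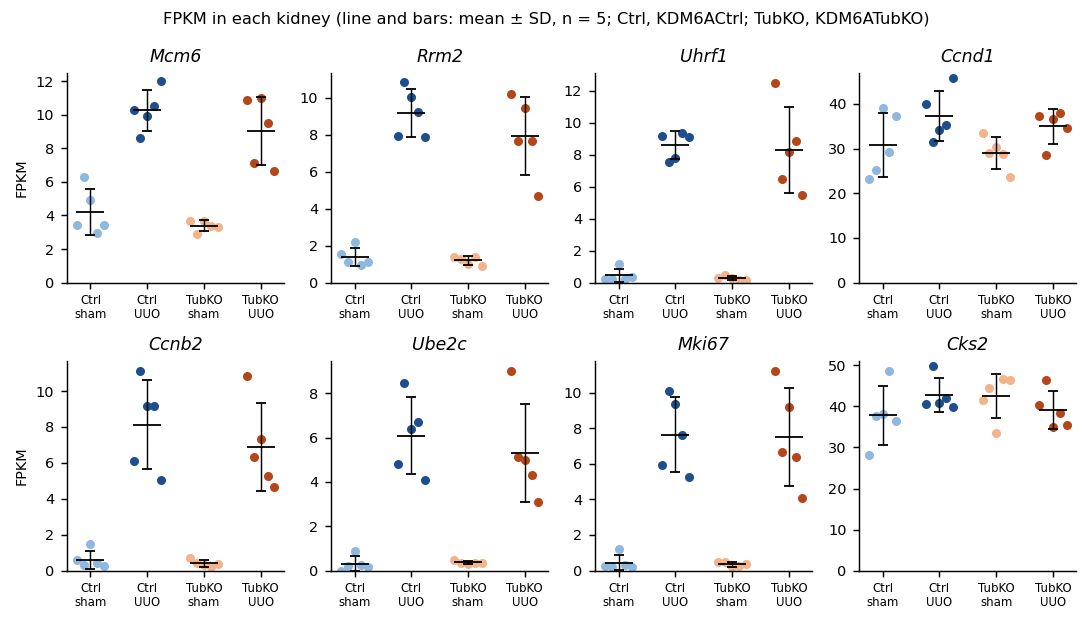
FPKM per kidney (linear axes from 0) of the replication genes Mcm6, Rrm2, Uhrf1 and Ccnd1 and of the mitotic genes Ccnb2, Ube2c, Mki67 and Cks2 in the 4 groups of 5, with 1 point per kidney and the mean and SD beside them. Uhrf1 runs from below 1.2 FPKM in every sham kidney to 5.48 FPKM or more in every UUO kidney, while Ccnd1 and Cks2 overlap between sham and UUO.

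Of the mitotic cyclins, CDK1 and its partner CKS2, 4 of 5 genes rose in each genotype, with median log2 fold changes of 1.88 and 1.87. Ccnb2 encodes a B-type cyclin that activates CDK1 at the entry into mitosis. Ccnb2 (9:70407692-70421547, minus strand) lay at 0.576, 0.283, 1.49, 0.408 and 0.264 FPKM in KDM6ACtrl sham kidneys, and at 6.08, 11.1, 9.17, 9.18 and 5.07 FPKM in KDM6ACtrl UUO kidneys. The KDM6ATubKO kidneys had Ccnb2 levels of 0.680, 0.422, 0.321, 0.186 and 0.379 FPKM after sham surgery, and of 10.8, 6.35, 7.33, 5.27 and 4.63 FPKM after UUO. The highest sham kidney was mouse 3 of the KDM6ACtrl group, at 1.49 FPKM, and the lowest UUO kidney was mouse 5 of the KDM6ATubKO group, at 4.63 FPKM. Ccnb2 changed by 2.51 ± 0.22 in KDM6ACtrl mice (adjusted p = 7.53e-09) and 2.45 ± 0.22 in KDM6ATubKO mice (adjusted p = 7.5e-09, limma). Ccna2, the cyclin of S phase and G2, rose by 2.40 and 2.24, Cdk1 by 1.88 and 1.87, and Ccnb1 by 1.13 and 0.85. Cdk1, whose promoter holds CHR, CCAAT and E2F letters, was at 0.0379 to 0.431 FPKM in KDM6ACtrl sham and 2.63 to 4.44 FPKM in KDM6ACtrl UUO kidneys, and at 0 to 0.237 FPKM in KDM6ATubKO sham and 1.98 to 4.23 FPKM in KDM6ATubKO UUO kidneys.

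Cks2, a small protein that binds cyclin-dependent kinases, was the one that did not. Cks2 (13:51645232-51650660, plus strand) measured 28.2, 37.8, 38.3, 48.6 and 36.4 FPKM in the KDM6ACtrl sham kidneys, and 40.7, 50.0, 40.9, 42.0 and 39.9 FPKM in the KDM6ACtrl UUO kidneys. In KDM6ATubKO mice Cks2 stood at 41.5, 44.4, 33.6, 46.6 and 46.5 FPKM after sham surgery, and at 40.4, 46.4, 35.0, 38.5 and 35.4 FPKM after UUO. It was the most abundant gene of the set in the sham kidneys of both genotypes, and sham and UUO kidneys overlapped. The log2 fold change of 0.19 ± 0.12 in KDM6ACtrl mice and of -0.11 ± 0.12 in KDM6ATubKO mice did not pass the test (adjusted p = 0.171 and 0.395, limma), and without sham mouse 4 that in KDM6ACtrl mice did (0.28). With upper quartile rescaling Cks2 was lower after UUO in KDM6ATubKO mice, by -0.40 (adjusted p = 0.00658, limma). Its promoter, shown above, holds 2 CCAAT boxes and none of the CHR letters in the bases shown.

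All 5 genes of the mitotic kinases and the chromosomal passenger complex rose, with median log2 fold changes of 1.71 in KDM6ACtrl mice and 1.48 in KDM6ATubKO mice. But all 5 were below 0.5 FPKM in both sham groups and had to be higher after UUO in at least 1 genotype. Birc5 encodes survivin, which guides the Aurora B kinase to centromeres. In KDM6ACtrl mice Birc5 (11:117849251-117855743, plus strand) was at 0.413, 0.0489, 0.647, 0.160 and 0.208 FPKM in the sham kidneys, and at 3.67, 7.82, 5.57, 5.93 and 3.70 FPKM in the UUO kidneys. Birc5 levels in KDM6ATubKO mice were 0.540, 0.443, 0.0948, 0.145 and 0.376 FPKM in the sham kidneys, and 8.35, 4.67, 5.37, 4.59 and 2.43 FPKM in the UUO kidneys. All sham kidneys were below 1 FPKM, and all UUO kidneys were above 2 FPKM. For Birc5, UUO changed the level by 2.27 ± 0.22 in KDM6ACtrl mice (adjusted p = 2.67e-08) and 2.14 ± 0.22 in KDM6ATubKO mice (adjusted p = 4.17e-08, limma). Plk1, the Polo-like kinase, was at 0.0752 to 0.712 FPKM in KDM6ACtrl sham and 0.180 to 0.546 FPKM in KDM6ATubKO sham kidneys, and at 3.13 to 5.59 FPKM and 2.10 to 4.96 FPKM after UUO, a rise of 2.01 and 1.66 on the log2 scale. Aurka, the Aurora kinase of the spindle poles, rose by 1.45 and 1.16, Aurkb by 1.22 and 1.07, and Melk, another mitotic kinase gene, by 1.71 and 1.48.

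The spindle checkpoint holds anaphase back until each chromosome is attached, and the APC/C then marks cyclins and securin for destruction. All 5 genes of this kind rose in both genotypes. The Ube2c values (2:164769898-164778822, plus strand) were 0, 0.217, 0.888, 0.234 and 0.156 FPKM in KDM6ACtrl sham kidneys, and 4.82, 8.49, 6.37, 6.71 and 4.10 FPKM in KDM6ACtrl UUO kidneys. For KDM6ATubKO mice, Ube2c gave 0.462, 0.359, 0.305, 0.354 and 0.347 FPKM in sham kidneys, and 9.0, 5.12, 5.0, 4.31 and 3.08 FPKM in UUO kidneys. Ube2c, the ubiquitin-conjugating enzyme of the APC/C, thus went from under 0.9 FPKM in every sham kidney to over 3 FPKM in every UUO kidney, with 1 sham kidney listed at 0. The UUO effect on Ube2c was 2.45 ± 0.20 in KDM6ACtrl mice (adjusted p = 4.11e-09) and 2.14 ± 0.20 in KDM6ATubKO mice (adjusted p = 1.78e-08, limma). Cdc20, the APC/C activator, rose by 2.12 and 1.64. The checkpoint kinase genes Bub1 and Ttk rose by 1.03 and 0.67 in KDM6ACtrl mice and by 0.96 and 0.68 in KDM6ATubKO mice, and Bub1b, which encodes the checkpoint protein BUBR1, by 1.08 and 0.99.

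Among 6 genes of kinetochores and the spindle, 5 rose in each genotype. Tpx2 (2:152847964-152895321, plus strand) lay at 0.152, 0.172, 0.673, 0.153 and 0.220 FPKM in KDM6ACtrl sham kidneys, and at 3.25, 4.75, 4.53, 4.04 and 2.67 FPKM in KDM6ACtrl UUO kidneys. The KDM6ATubKO kidneys had Tpx2 levels of 0.285, 0.0598, 0.0896, 0.0675 and 0.155 FPKM after sham surgery, and of 5.73, 3.08, 4.56, 3.06 and 2.10 FPKM after UUO. Tpx2, which nucleates spindle microtubules and activates Aurora A, was below 0.7 FPKM in all sham and above 2 FPKM in all UUO kidneys. On the log2 scale Tpx2 changed by 1.92 ± 0.17 in KDM6ACtrl mice (adjusted p = 1.17e-08) and 2.01 ± 0.17 in KDM6ATubKO mice (adjusted p = 4.87e-09, limma). Cenpe and Cenpf, kinetochore proteins, rose by 1.31 and 1.01 in KDM6ACtrl mice and by 1.29 and 0.96 in KDM6ATubKO mice, and Kif11, the motor that separates the spindle poles, by 1.35 and 1.16. Spag5, which encodes the spindle protein astrin, was the exception. Spag5 (11:78301529-78322457, plus strand) measured 2.96, 0.927, 0.995, 0.324 and 0.829 FPKM in the KDM6ACtrl sham kidneys, and 0.756, 1.36, 1.11, 1.28 and 0.713 FPKM in the KDM6ACtrl UUO kidneys. In KDM6ATubKO mice Spag5 stood at 1.5, 0.418, 1.45, 1.18 and 0.788 FPKM after sham surgery, and at 1.55, 1.08, 1.31, 0.667 and 0.566 FPKM after UUO. The kidneys overlapped across all 4 groups, and the highest value was that of a sham kidney, KDM6ACtrl mouse 1. Spag5 changed by -0.02 ± 0.23 in KDM6ACtrl mice (adjusted p = 0.939) and -0.02 ± 0.23 in KDM6ATubKO mice (adjusted p = 0.952, limma).

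All 6 genes of the central spindle and cytokinesis, which split the cell body, rose with medians of 1.13 in KDM6ACtrl mice and 1.29 in KDM6ATubKO mice. In KDM6ACtrl mice Kif20a (18:34624624-34633265, plus strand) was at 0.154, 0.377, 1.06, 0.207 and 0.508 FPKM in the sham kidneys, and at 2.44, 4.71, 5.2, 3.83 and 2.33 FPKM in the UUO kidneys. Kif20a levels in KDM6ATubKO mice were 0.311, 0.238, 0.287, 0.114 and 0.199 FPKM in the sham kidneys, and 4.28, 2.63, 3.41, 2.04 and 1.26 FPKM in the UUO kidneys. For Kif20a, a motor of the central spindle, the UUO kidneys lay above the sham kidneys, and the nearest values were 1.06 FPKM in mouse 3 of the KDM6ACtrl sham group and 1.26 FPKM in mouse 5 of the KDM6ATubKO UUO group. For Kif20a, UUO changed the level by 1.67 ± 0.21 in KDM6ACtrl mice (adjusted p = 1.07e-06) and 1.54 ± 0.21 in KDM6ATubKO mice (adjusted p = 2.44e-06, limma). Kif23, Prc1 and Racgap1, which bundle the midzone microtubules, rose by 1.15, 1.12 and 1.36 in KDM6ACtrl mice and by 1.49, 1.21 and 1.36 in KDM6ATubKO mice. Ect2 and Anln, which set up the contractile ring, rose by 0.96 and 0.98 in KDM6ACtrl mice and by 0.56 and 0.89 in KDM6ATubKO mice.

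All 6 genes of chromosome structure rose, with medians of 1.53 and 1.54. Mki67 encodes the Ki-67 antigen that coats mitotic chromosomes and is the usual stain for dividing cells. The Mki67 values (7:135689784-135716361, minus strand) were 0.274, 0.221, 1.24, 0.295 and 0.215 FPKM in KDM6ACtrl sham kidneys, and 5.93, 10.1, 9.38, 7.60 and 5.24 FPKM in KDM6ACtrl UUO kidneys. For KDM6ATubKO mice, Mki67 gave 0.480, 0.498, 0.185, 0.234 and 0.344 FPKM in sham kidneys, and 11.2, 6.65, 9.21, 6.37 and 4.08 FPKM in UUO kidneys. Again mouse 3 of the KDM6ACtrl sham group was the highest sham kidney, and all UUO kidneys lay above it. The UUO effect on Mki67 was 2.59 ± 0.22 in KDM6ACtrl mice (adjusted p = 4.52e-09) and 2.60 ± 0.22 in KDM6ATubKO mice (adjusted p = 3.09e-09, limma). Condensin, the ring that compacts chromosomes, has SMC2 and SMC4 as its core. Smc4 (3:69004738-69034623, plus strand) lay at 8.75, 8.82, 7.81, 9.16 and 8.62 FPKM in KDM6ACtrl sham kidneys, and at 20.2, 28.5, 22.5, 26.7 and 22.8 FPKM in KDM6ACtrl UUO kidneys. The KDM6ATubKO kidneys had Smc4 levels of 9.25, 8.36, 8.07, 8.37 and 8.76 FPKM after sham surgery, and of 28.8, 23.8, 23.7, 31.8 and 22.9 FPKM after UUO. Smc4 was well expressed before obstruction and its sham kidneys differed little from each other. On the log2 scale Smc4 changed by 1.38 ± 0.09 in KDM6ACtrl mice (adjusted p = 3.64e-10) and 1.5 ± 0.09 in KDM6ATubKO mice (adjusted p = 8.42e-11, limma). Smc2 rose by 1.68 and 1.58, and the other condensin subunits Ncapg and Ncapd2 by 0.88 and 1.11 in KDM6ACtrl mice and by 0.83 and 0.98 in KDM6ATubKO mice. Top2a, the topoisomerase that untangles sister DNA, rose by 2.25 and 2.05. It was at 0.0788 to 0.589 FPKM in KDM6ACtrl sham and 3.51 to 5.85 FPKM in KDM6ACtrl UUO kidneys, and at 0.113 to 0.269 FPKM in KDM6ATubKO sham and 1.90 to 6.31 FPKM in KDM6ATubKO UUO kidneys.

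**Figure D3:**
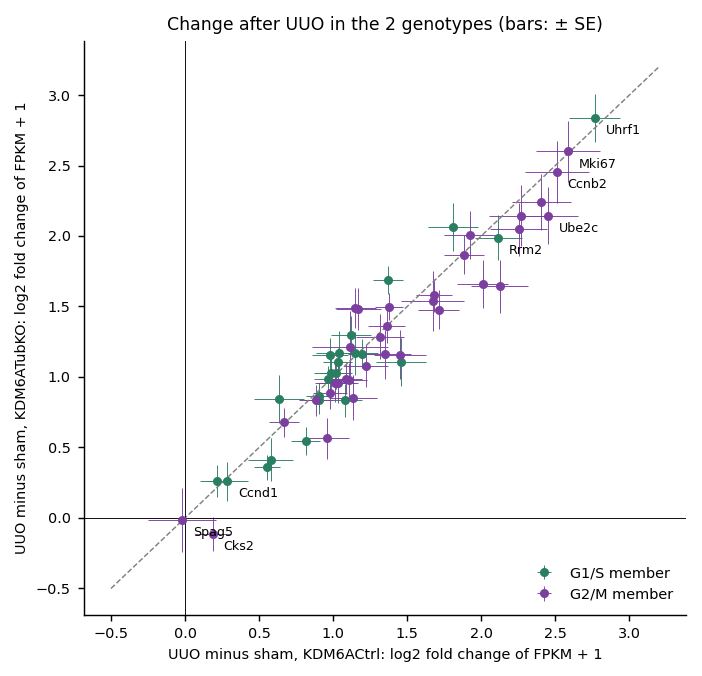
Log2 fold change of UUO against sham on the log2(FPKM + 1) scale in KDM6ACtrl mice (horizontal) and KDM6ATubKO mice (vertical) for the 56 genes, with standard errors and a line of equal change. The genes run along the line from Spag5, Cks2, Tyms and Ccnd1 near 0 to Uhrf1 at 2.77 and 2.84, and the 2 fits share no kidneys but 1 estimate of the spread.

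The mean of log2(FPKM + 1) over the G1/S genes was 1.27, 1.26, 1.45, 1.24 and 1.25 in KDM6ACtrl sham kidneys, and 2.37, 2.32, 2.31, 2.41 and 2.49 in KDM6ACtrl UUO kidneys. In KDM6ATubKO mice it was 1.25, 1.20, 1.17, 1.18 and 1.20 in sham kidneys, and 2.63, 2.09, 2.40, 2.33 and 1.97 in UUO kidneys. No sham kidney came near a UUO kidney, and the KDM6ATubKO UUO kidneys were spread more widely than the others. The same mean over the G2/M genes was 0.61, 0.57, 0.93, 0.59 and 0.58 in KDM6ACtrl sham kidneys, and 1.87, 2.43, 2.28, 2.10 and 1.87 in KDM6ACtrl UUO kidneys. In KDM6ATubKO mice the G2/M mean was 0.71, 0.57, 0.59, 0.56 and 0.59 in sham kidneys, and 2.39, 1.87, 2.15, 1.86 and 1.53 in UUO kidneys. Mouse 3 of the KDM6ACtrl sham group stood out among the sham kidneys in both phases, and more so in G2/M.

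**Figure D4:**
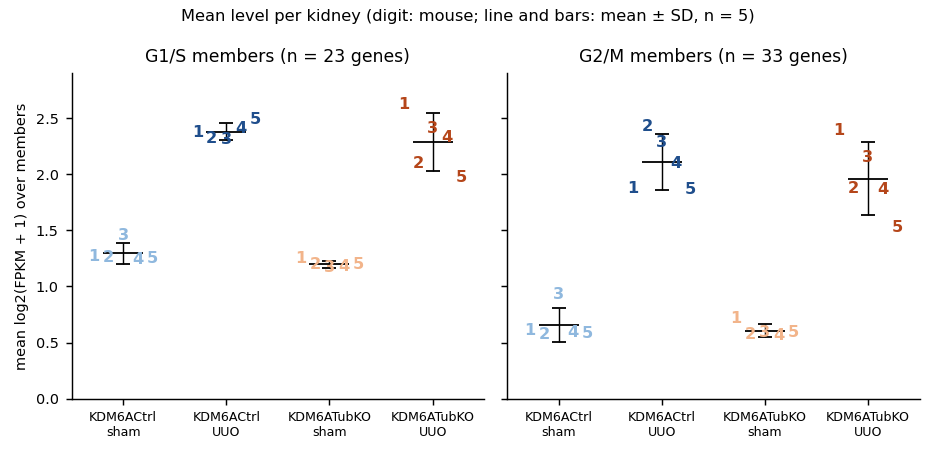
Mean log2(FPKM + 1) over the 23 G1/S genes and over the 33 G2/M genes in each kidney of the 4 groups, where a digit is the number of the mouse and bars give the mean and SD of 5 kidneys. Mouse 1 is highest and mouse 5 lowest of the KDM6ATubKO UUO kidneys in both phases, whereas the order of the KDM6ACtrl UUO kidneys differs between the phases.

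Replication and mitotic genes did not order the obstructed kidneys alike in both genotypes. In the KDM6ATubKO UUO group, mouse 1 was the highest of the 5 kidneys for 47 of the 56 genes and mouse 5 the lowest for 42, in both phases. In the KDM6ACtrl UUO group, mouse 2 was the highest for 24 of 33 G2/M genes but for 2 of 23 G1/S genes, whereas mouse 5 was the highest for 12 of 23 G1/S genes and the lowest for 15 of 33 G2/M genes. The G2/M mean minus the G1/S mean of a kidney ranged from -0.62 (mouse 5) to 0.11 (mouse 2) in KDM6ACtrl UUO kidneys and from -0.46 to -0.22 in KDM6ATubKO UUO kidneys. In sham kidneys it was narrower, from -0.69 to -0.53 in KDM6ACtrl and from -0.62 to -0.54 in KDM6ATubKO mice. The 56 genes share their libraries, so these orders are descriptions of 5 kidneys each.

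Markers of several cell types moved with the cell cycle genes. Of all genes 56.7% rose and 15.1% fell in KDM6ACtrl mice, and 57.9% rose and 16.7% fell in KDM6ATubKO mice. Summed over 10 macrophage and monocyte markers, FPKM were 23.4 to 52.9 in KDM6ACtrl sham and 288 to 601 in KDM6ACtrl UUO kidneys, and 33.5 to 44.6 and 439 to 601 in KDM6ATubKO kidneys, with all 10 higher after UUO in both genotypes. All 8 fibroblast markers also rose, from sums of 8.71 to 33.4 FPKM to sums of 211 to 312 FPKM in KDM6ACtrl mice and from 14.8 to 20.5 FPKM to 257 to 382 FPKM in KDM6ATubKO mice. All 8 injured tubule markers rose, with sums of 375 to 1250.4 FPKM in sham and 7313 to 12690.0 FPKM in UUO kidneys over both genotypes, and all 8 proximal tubule markers fell. Of the T and NK cell markers 8 of 10 were measured (not Trac and Ncr1), with sums at or under 24.5 FPKM. Of the 8, 7 were below 0.5 FPKM in both sham groups, so that their higher values after UUO in at least 1 genotype follow from the listing. Among B and plasma cell markers, 4 of 6 were measured. Of these, 2 rose in KDM6ACtrl and 3 in KDM6ATubKO mice, which for so few markers is close to the shares of all genes. Of the neutrophil markers 3 of 6 were measured (not Ly6g, Mpo and Elane) and all 3 rose. The 6 endothelial markers summed to 27.8 to 52.2 FPKM in sham and to 36.6 to 67.9 FPKM in UUO kidneys. In KDM6ACtrl mice 3 of them rose (median 0.08), and in KDM6ATubKO mice 3 rose and 1 fell (median 0.44). The medians over all genes were 0.35 and 0.39. Of the 9 urothelium markers, 9 rose in KDM6ACtrl mice (median 2.40) and 3 in KDM6ATubKO mice (median 1.05), and of 5 red blood cell markers 0 changed in KDM6ACtrl mice (0 at an unadjusted p under 0.05, median -0.30) and 5 fell in KDM6ATubKO mice (median -1.48), with 0 interactions called by limma in either list (1 and 5 at an unadjusted p under 0.05). Genes listed only through UUO kidneys were 1 of the 10 macrophage, 2 of the 8 fibroblast, 1 of the 3 neutrophil and 1 of the 9 urothelium markers. The part of these cell types in the change of the cell cycle genes was not tested.

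Single kidneys that stood apart for the cell cycle genes also differed in such markers, though not in the same markers or direction. Mouse 3 of the KDM6ACtrl sham group had an injured tubule sum of 1250.4 FPKM against 375 to 479 FPKM in the other 4, and a macrophage sum of 52.9 FPKM, the highest of the group. Without this kidney 53 of the 56 genes rose in KDM6ACtrl mice. Mouse 2 of the KDM6ACtrl UUO group was highest for most mitotic genes, and without it 53 genes rose. It had a urothelium sum over 9 markers of 1006 FPKM, against 47.9 to 455 FPKM in the other 4 kidneys of the group. Its injured tubule sum of 7430 FPKM was the lowest of the group, and its neutrophil sum of 101 FPKM the highest. With the mean log2(FPKM + 1) of the 9 urothelium markers as a covariate, 51 genes rose in KDM6ACtrl and 52 in KDM6ATubKO mice. Cdt1 and Cdc45 then lost and Ccnd1 gained the call in KDM6ACtrl mice, and Cdc45 and Tyms lost and Ccnd1 gained it in KDM6ATubKO mice. In KDM6ATubKO UUO mouse 1, highest for most cell cycle genes, the injured tubule sum was the highest of all kidneys at 12690.0 FPKM and the proximal tubule sum the lowest at 298 FPKM. Mouse 5 of that group, lowest for most, had an injured tubule sum of 9661 FPKM, inside the range of the group. Its neutrophil sum of 47.1 FPKM was the highest of the group, against 16.3 to 30.1 FPKM in the other 4. Mouse 5 of the KDM6ACtrl UUO group, whose rank differed between the phases, had 296 FPKM summed over 5 perirenal fat markers (Lep was not measured). The other 4 kidneys of its group had 27.0 to 63.2 FPKM. In the same mouse 5, the injured tubule sum of 8600 FPKM and the macrophage sum of 601 FPKM were the highest of the group. Its proximal tubule sum of 393 FPKM was the lowest of the group. The part of these markers in the levels was not tested.

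No gene of the set differed between the genotypes at an adjusted p under 0.05. In sham kidneys 0 of 56 genes were called by limma (1.95% of all genes were higher and 3.9% lower in KDM6ATubKO than in KDM6ACtrl), and 2 were lower at an unadjusted p under 0.05, Mcm4 and Nusap1, where 13.1% of all genes were lower at that level. In UUO kidneys 0 were called (2.57% of all genes higher, 3.07% lower) and 5 were lower at an unadjusted p under 0.05, where 12.3% of all genes were lower at that level. The per-gene F-test without the covariate also called 0 in either surgery, as did the one with it. Log2 differences in UUO kidneys ran from -0.40 to 0.16 over the 56 genes and in sham kidneys from -0.41 to 0.18, with standard errors between 0.09 and 0.26. The UUO effect itself did not differ between the genotypes by the interaction term at an adjusted p under 0.05 for any of the 56 genes (0.0145% of all genes were called in each direction), and 1 gene, Mcm4, passed at an unadjusted p under 0.05 with a higher effect in KDM6ATubKO mice, as did 9.12% of all genes. Its UUO effect was larger in KDM6ATubKO mice by 0.31 ± 0.14 (unadjusted p = 0.0379, adjusted p = 0.289, limma).

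Nusap1, which encodes a protein that bundles spindle microtubules, was the single gene whose KDM6ATubKO sham kidneys all lay below the KDM6ACtrl sham kidneys, where 4.88% of all genes did so. Nusap1 (2:119618298-119651244, plus strand) measured 1.06, 1.62, 1.43, 1.17 and 1.33 FPKM in the KDM6ACtrl sham kidneys, and 3.30, 5.36, 5.2, 4.06 and 3.47 FPKM in the KDM6ACtrl UUO kidneys. In KDM6ATubKO mice Nusap1 stood at 0.856, 0.864, 0.779, 0.428 and 0.832 FPKM after sham surgery, and at 5.14, 4.09, 4.62, 3.87 and 2.24 FPKM after UUO. Obstructed kidneys overlapped between the genotypes, and all were above the sham kidneys. The sham means were 1.32 ± 0.220 FPKM in KDM6ACtrl and 0.752 ± 0.184 FPKM in KDM6ATubKO mice, a log2 difference of -0.41 ± 0.15 (unadjusted p = 0.013, adjusted p = 0.11, limma). The adjusted p fell to 0.0395 with a pseudocount of 0.1 and to 0.0368 with array weights, and stayed above 0.05 in the other alternatives. Mcm4, whose values are given above, differed in sham kidneys by -0.28 ± 0.10 (unadjusted p = 0.0121, adjusted p = 0.106).

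After obstruction the KDM6ATubKO value was the lower for 49 of the 56 genes, where it was the lower for 6915 of all 13827 genes, with a median log2 difference of -0.10 for G1/S and -0.14 for G2/M genes and of 0 over all genes. In sham kidneys it was the lower for 47 of the 56 genes and for 7605 of all 13827, with medians of -0.10 and -0.04. That sham count rested on KDM6ACtrl sham mouse 3, without which it was 28 of 56 and the medians were -0.04 and 0.02, and with a number series covariate it was 23 of 56. The largest was that of Ect2, a regulator of cytokinesis, with 1.61 to 3.04 FPKM in KDM6ACtrl and 1.08 to 2.41 FPKM in KDM6ATubKO UUO kidneys (-0.40 ± 0.15, unadjusted p = 0.0128, adjusted p = 0.102, limma). Plk1 had 3.13 to 5.59 FPKM in KDM6ACtrl and 2.10 to 4.96 FPKM in KDM6ATubKO UUO kidneys (-0.39 ± 0.17, unadjusted p = 0.0333). The ranges of both genes overlapped between the genotypes. Ccnb1 differed by -0.35 ± 0.16, Ccne2 by -0.22 ± 0.10 and Cdc6 by -0.21 ± 0.09 (unadjusted p = 0.0425, 0.0394 and 0.0286, limma), and none passed the adjustment. Of these 5 genes only Ect2 stayed at an unadjusted p under 0.05 with the compared groups alone or a pseudocount of 0.1. With the urothelium covariate 0 of the 5 did, and 5 others were at that level (Aurkb, Ccne1, Mcm5, Mcm6 and Smc4). Markers of other cell types differed between the same kidneys. All 9 urothelium markers were lower in KDM6ATubKO than in KDM6ACtrl UUO kidneys, 6 of them at an adjusted p under 0.05 (median log2 difference -2.15), with sums of 47.9 to 1006 FPKM in KDM6ACtrl and 19.7 to 122 FPKM in KDM6ATubKO kidneys. These 6 calls fell to 0 with the compared groups alone, and without KDM6ACtrl UUO mouse 2 (median -1.73) or KDM6ATubKO UUO mouse 4. All 8 proximal tubule markers had lower values, with 0 called by limma (2 at an unadjusted p under 0.05, median -0.42), and 4 of 10 macrophage and monocyte markers (median 0.29) and 2 of 6 endothelial markers (median 0.41) were higher, with 0 of either called with the compared groups alone. In sham kidneys the 5 red blood cell markers had higher values in KDM6ATubKO mice (0 called by limma, 5 at an unadjusted p under 0.05, median 0.95). With the urothelium covariate the medians of the cell cycle genes were -0.15 for G1/S and -0.06 for G2/M genes. The part of these cell types in the lean was not tested.

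This lean rested on few kidneys. Without mouse 5 of the KDM6ATubKO UUO group the medians were -0.02 for G1/S and -0.04 for G2/M genes, and 1 of the 5 genes, Ect2, was at an unadjusted p under 0.05. Without mouse 1 of that group they were -0.17 and -0.23, and 19 genes were at an unadjusted p under 0.05, with 0 at an adjusted p. The number before the dash of each mouse identifier occurs in a single group only, so these numbers and the groups cannot be told apart. By their first digits they fall into a pair of number series, whose meaning the labels do not give. Within the first, with 3 UUO kidneys of each genotype, 32 of the 56 genes were lower in KDM6ATubKO mice and the median difference was -0.02, in comparison to 0.03 over all genes. Within the second, with 2 kidneys of each genotype, 53 were lower and the median difference was -0.27, in comparison to -0.05. Whether the series differ was not tested. The values were higher after UUO for 55 of the 56 genes in each series in KDM6ACtrl mice, with medians of 1.12 (3 UUO and 3 sham kidneys) and 1.18 (2 and 2), and for 54 genes in each in KDM6ATubKO mice, with medians of 1.23 (3 UUO kidneys but 1 sham kidney) and 1.02 (2 and 4).

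**Figure D5:**
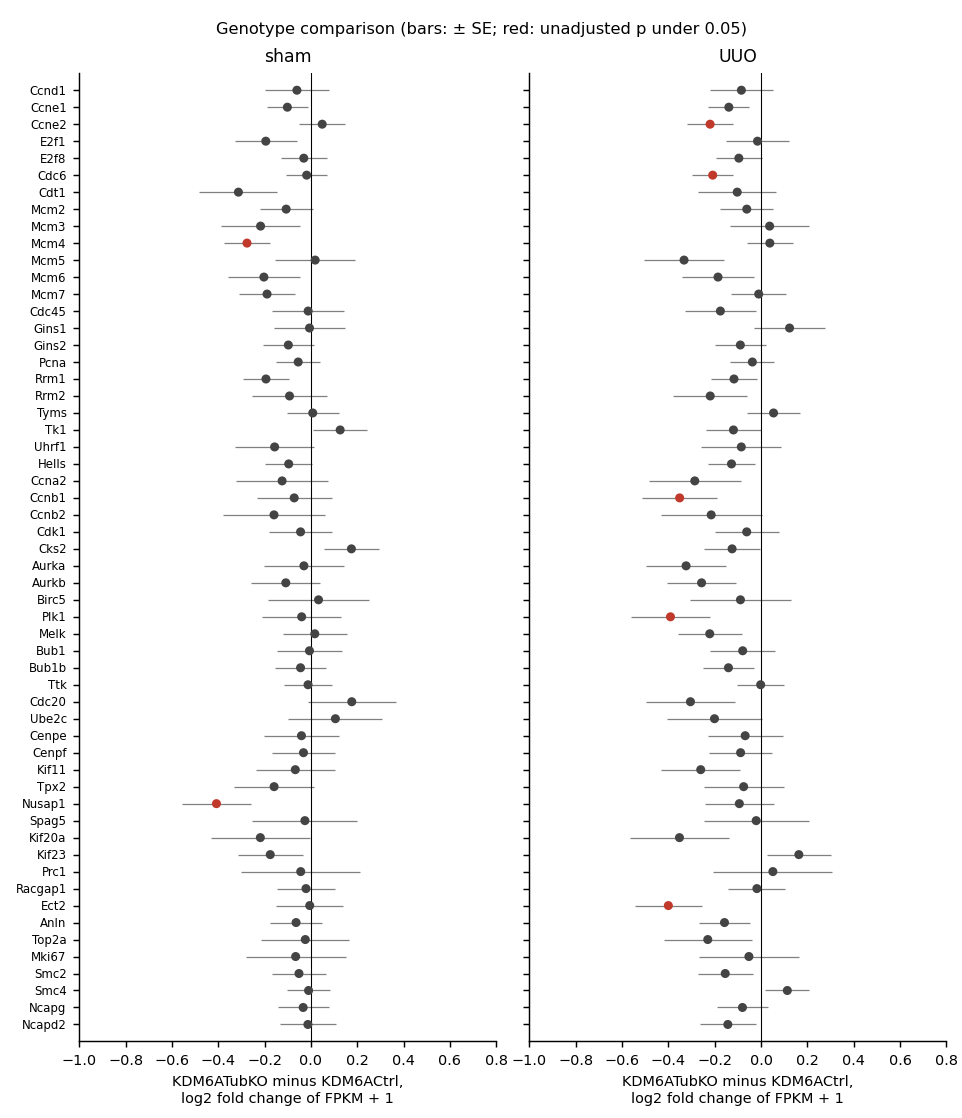
Log2 difference of KDM6ATubKO minus KDM6ACtrl with its standard error for each of the 56 genes in sham and in UUO kidneys, in red where the unadjusted p was under 0.05. Most points lie just left of 0, 2 genes are red in sham and 5 in UUO kidneys, and no gene passed at an adjusted p under 0.05.

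Other genes of the cycle, in lists chosen with earlier results of these data known, are given beside the share of all genes, of which 56.7% rose and 15.1% fell in KDM6ACtrl mice and 57.9% and 16.7% in KDM6ATubKO mice. Of 34 further replication genes measured of 35, 29 rose and 1 fell in either genotype, with median log2 fold changes of 0.58 and 0.59, and of the 29 that reached 0.5 FPKM in a sham group 24 rose. Among them were Lig1, the ligase that joins Okazaki fragments (log2 fold change 1.45 in KDM6ACtrl and 1.54 in KDM6ATubKO mice), and Chaf1b, a histone chaperone subunit (1.33 and 1.17). Of 39 further mitosis genes measured of 46, 29 were below 0.5 FPKM in both sham groups and listed through UUO kidneys, and of the other 10, 8 rose in either genotype, with medians of 1.04 and 0.95. The list includes the kinetochore gene Ndc80 (2.06 and 2.20) and the mitotic kinase gene Pbk (1.85 and 1.61). Spc25, a partner of NDC80, fell in KDM6ACtrl mice (-0.52) and did not pass the test in KDM6ATubKO mice (-0.38). Of 5 further G1 cyclins and kinases, 3 rose in KDM6ACtrl and 4 in KDM6ATubKO mice, with Ccnd2 at 2.12 and 1.66 and Cdk6 at 1.17 and 1.48. Between the genotypes, 1 gene of each of these 3 lists was called lower in KDM6ATubKO sham kidneys, where 3.9% of all genes were. In UUO kidneys 1 replication gene was called lower, where 3.07% of all genes were. In either surgery 0 genes of these lists were called higher.

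CDK inhibitors restrain the cycle. Of their genes, 6 of 7 were measured, and 5 rose in KDM6ACtrl mice and 6 in KDM6ATubKO mice. Cdkn1a, which encodes p21, rose by 2.86 and 3.04 and Cdkn2b, which encodes p15, by 1.20 and 1.29. Cdkn1b, Cdkn1c and Cdkn2c rose by 0.70, 0.75 and 0.49 in KDM6ACtrl mice and by 1.03, 0.79 and 0.77 in KDM6ATubKO mice, and Cdkn2d, at 0.28 and 0.67, passed the test in KDM6ATubKO mice. The interaction term was called for 0 of the 6 (0 at an unadjusted p under 0.05). Between the genotypes 0 were called by limma in either surgery. At an unadjusted p under 0.05, 3 were lower and 1 higher in KDM6ATubKO sham kidneys (1812 and 1161 of all 13827 genes). In UUO kidneys 0 were lower and 1 higher at that level (1699 and 1706 of all genes). Of the transcription factors of the cycle, 17 of 18 were measured (2 of them listed only through UUO kidneys), with 11 that rose and 3 that fell in KDM6ACtrl mice and 10 and 3 in KDM6ATubKO mice, shares near those of all genes. Those that rose include Myc (2.62 and 2.96) and Mybl2, a partner of the complex that activates mitotic genes (0.48 and 0.51). Rbl2, a repressor of the resting cell, fell in both (-0.50 and -0.30), and Tfdp2 in KDM6ACtrl mice (-0.78). Between the genotypes, 2 of the 17 were called lower in KDM6ATubKO sham kidneys (3.9% of all genes) and 1, Foxm1, in UUO kidneys (3.07%). In either surgery 0 were called higher. Foxm1, an activator of mitotic genes, rose from a mean of 0.129 to 1.25 FPKM in KDM6ACtrl mice and was at 0.115 and 0.137 FPKM in KDM6ATubKO mice, a difference in UUO effect of -0.95 ± 0.15. Foxm1 is in the table through its KDM6ACtrl UUO mean, the only one of its 4 means to reach 0.5 FPKM, so it had to be higher there and its difference is given as a description. The interaction call was lost with quantile normalization, with the urothelium covariate and without KDM6ATubKO UUO mouse 5 (adjusted p = 0.0782, 0.0717 and 0.0528, limma).

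The transcript table held 81 transcripts of the 56 genes, with 1 transcript for 38 genes and several for 18. The mean FPKM was higher after UUO for 78 transcripts in KDM6ACtrl mice and for 77 in KDM6ATubKO mice. The transcript with the highest mean was the same in all 4 groups for 48 genes. It differed between groups for E2f1, Mcm5, Uhrf1, Aurka, Tpx2, Kif20a, Prc1 and Racgap1, most of them low in sham kidneys. For E2f1 the leading transcript held 79.5% and 58.0% of the gene's FPKM in KDM6ACtrl sham and UUO kidneys, and 76.4% and 76.2% in KDM6ATubKO kidneys, with the leader changing between the surgeries in opposite ways. All 56 genes were found in GENCODE vM21, and the exons of 17 overlap those of another gene. Whether fragments were counted by strand is not given in the sources used here, so these genes are less certain.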

How the data were processed

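Total RNA of 20 left kidneys was isolated with Trizol and sequenced as stranded libraries (KAPA). The submitters' processing notes name cutadapt, HISAT2, GRCm38 and StringTie, with versions not given in the sources used here, and the authors deposited FPKM from Ballgown for 13842 genes and 26228 transcripts. Those FPKM carry no counts, so depth and counting error are unknown. Symbols shared by several rows (14) were reduced to the row with the highest mean, which left 13827.

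Here log2(FPKM + 1) was fitted with limma 3.58.1 (R 4.3.3) as 1 mean per group over all 20 kidneys, with eBayes and trend, and p-values were adjusted by the Benjamini-Hochberg method over all symbols. A filter at a mean of 0.5 FPKM in 1 group removed none. Tables and plots used Python 3.11.15, pandas 2.3.3, numpy 2.4.6 and matplotlib 3.10.9. The labels do not say how the 5 mice of a group relate, so p-values measure the spread between these kidneys. Several kidneys of a group share the number before the dash of their identifier, and each such number occurs in a single group only. Such kidneys may not be independent, which the tests do not take into account. The fit was tested on simulated data.

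The 56 genes and all lists were chosen with earlier results of these data known. Values of every kidney are given, by rule, for the gene with the highest mean FPKM and the gene with the largest UUO effect in KDM6ACtrl mice in each of 11 roles, and those of Tyms, Spag5 and Mcm4 were added after their values were seen. From the other lists the genes with the largest changes, all CDK inhibitors, Foxm1 and Mybl2 are named, with some items not reported here. The alternatives tried were a filter at 1 FPKM, a pseudocount of 0.1, fitting the compared groups alone and a Ballgown-like F-test with its library-size covariate. Others were upper quartile rescaling, quantile normalization, array weights, covariates for number series and urothelium markers, and leaving out each kidney. The F-test without the covariate was added after the data were seen.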

Additional observations from a re-analysis of the deposited data

Results flagged for a closer look

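A kidney was set apart when its distance to the nearest of the other 4, divided by the range of the group of 5, was above 0.71, Dixon's critical value, and chance alone does this in about 1 of 20 groups. Over 232 groups (the 56 genes and the mean levels of the 2 phases in 4 groups) there were 32 such cases, 29 of them for single genes. Mouse 3 of the KDM6ACtrl sham group gave 20 of the 32, as the highest kidney for 18 genes and for the mean levels of both phases. It had 0.121 FPKM of E2f8, 1.46 of Mcm5, 1.17 of Uhrf1, 0.314 of Hells, 1.01 of Ccna2, 0.320 of Ccnb1, 1.49 of Ccnb2, 0.431 of Cdk1, 0.482 of Aurkb, 0.255 of Melk, 0.213 of Bub1, 0.888 of Ube2c, 0.673 of Tpx2, 0.397 of Prc1, 0.589 of Top2a, 1.24 of Mki67, 1.56 of Smc2 and 0.123 of Ncapg. Its mean log2(FPKM + 1) of 1.45 over the G1/S genes and 0.93 over the G2/M genes was set apart as well. The injured tubule and macrophage sums of this kidney are given in the report, and their part was not tested.

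The other kidneys were set apart for scattered genes. In KDM6ACtrl mice these were sham mouse 1 for Spag5 (2.96 FPKM, highest), sham mouse 4 for Tyms (2.69 FPKM, highest), UUO mouse 1 for Rrm1 (3.34 FPKM, lowest), UUO mouse 2 for Cks2 (50.0 FPKM, highest) and UUO mouse 5 for Hells (2.34 FPKM, highest). In KDM6ATubKO mice they were sham mouse 1 for Melk (0.236 FPKM), Bub1 (0.161 FPKM) and the G2/M mean (0.71), highest in each, sham mouse 4 for Rrm1 (1.40 FPKM, highest) and Nusap1 (0.428 FPKM, lowest), sham mouse 5 for Ttk (0.0530 FPKM, highest) and UUO mouse 1 for Ttk (1.20 FPKM, highest).

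The interaction term of limma for Foxm1 was -0.95 on the log2 scale. Foxm1 is in the table only through its KDM6ACtrl UUO mean, which enters this term, so the value is given as a description. Its call was lost with quantile normalization, with the urothelium covariate and without KDM6ATubKO UUO mouse 5 (adjusted p = 0.0782, 0.0717 and 0.0528, limma). The interaction term passed at an adjusted p under 0.05 for 0 of the 56 genes (1 at an unadjusted p under 0.05).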

How the results depend on the processing

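FPKM without counts limit the genes near 0 in sham kidneys, whose fold changes follow the pseudocount. At a pseudocount of 0.1 the G2/M medians were 2.86 in KDM6ACtrl and 2.76 in KDM6ATubKO mice. Leaving out each kidney gave 52 to 54 higher and 0 lower genes in KDM6ACtrl mice, 51 to 53 and 0 in KDM6ATubKO mice, and 0 calls between genotypes or for the interaction. In the other alternatives except the Ballgown-like test, 48 to 52 and 46 to 53 genes rose. The 48 came from the filter at 1 FPKM, which left 52 of the 56 genes to test, and there 49 rose in KDM6ATubKO mice. The Ballgown-like test called 0 higher in each genotype. Quantile normalization called 2 lower in each genotype, Tyms (-0.33 and -0.31) and Spag5 (-0.56 and -0.58), and upper quartile rescaling 1 lower in KDM6ATubKO mice, Cks2. In sham kidneys 1 gene, Nusap1, was called lower in KDM6ATubKO mice with a pseudocount of 0.1 and 1 with array weights. No paired analysis was possible because the mice of a group were numbered in the order of the records and the labels pair no kidneys.

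Signs turned in the Ballgown-like test for Cdt1 (-1.11), Mcm7 (-0.31) and Cdc45 (-0.21) in KDM6ACtrl mice. In KDM6ATubKO mice they turned for Ccnd1 (-0.085), E2f8 (-0.27), Cdc6 (-0.60), Pcna (-0.62), Cks2 (0.68), Aurka (-0.59), Bub1b (-0.78), Cdc20 (-0.021), Cenpf (-0.023), Kif11 (-0.64), Prc1 (-1.15), Anln (-0.43), Ncapg (-0.17), Ncapd2 (-0.52) and Foxm1 (-0.57). With quantile normalization they turned for Cdc45 (-0.0026 in KDM6ACtrl, -0.16 in KDM6ATubKO mice), for Ect2 (-0.019) and Foxm1 (-0.29) in KDM6ATubKO mice, and for Tyms. With upper quartile rescaling Cks2 turned in KDM6ACtrl mice (-0.093), and Ccnd1 (-0.027) and Foxm1 (-0.0066) in KDM6ATubKO mice. A urothelium covariate turned Cks2 (-0.044) in KDM6ACtrl and Foxm1 (-0.034) in KDM6ATubKO mice, and a number series covariate turned Foxm1 (-0.032). Spag5, near 0, turned in KDM6ACtrl mice with a pseudocount of 0.1 (0.066), array weights (0.085) and without sham mouse 1 (0.21), UUO mouse 1 (0.031) or UUO mouse 5 (0.040), within a range of -0.18 to 0.21 over the kidneys left out. In KDM6ATubKO mice Spag5 turned without sham mouse 1 (0.060), 3 (0.053) or 4 (0.011), or UUO mouse 4 (0.049) or 5 (0.072), within a range of -0.14 to 0.07. The cause was not tested. Counts of all genes called between genotypes moved by over 1.5 times, from 269 higher and 539 lower in sham kidneys to 113 and 157 with the compared groups alone and 587 and 954 with array weights, and from 356 and 425 in UUO kidneys to 1 and 0 with the compared groups alone and 12 and 18 with the urothelium covariate. The Foxm1 difference in UUO kidneys lost its call with the compared groups alone (adjusted p = 0.0668, limma) and in the F-tests with and without the covariate (0.0672 and 0.0622), and its interaction with quantile normalization (0.0782), with the urothelium covariate (0.0717) and without KDM6ATubKO UUO mouse 5 (0.0528).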
